A study of Mus musculus with 9 samples.

Results

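Collagen chains were followed in mouse cerebral cortex, in RNA pulled down with ribosomes whose tag is aimed at endothelial cells, and in the RNA of the whole tissue. The members were the genes whose symbol reads Col, a type number, a and a chain number. There were 44 of them among 32531 gene rows, and all 44 were found in the mouse gene annotation GENCODE M21 (genome build mm10). Every library came from cerebral cortex of untreated adult control mice carrying the Abcb1a-EGFP/Rpl10a transgene, line ES3026, so the inputs carried it too. In this translating ribosome affinity purification (TRAP), regulatory sequence of Abcb1a, a drug efflux pump gene of brain endothelium, drives a ribosomal protein fused to green fluorescent protein, and antibodies against that tag pull down ribosomes with their mRNA. The 3 groups of 3 libraries were JL IP (the pulled-down fraction extracted by investigator JL), ES IP (the same fraction extracted by investigator ES) and JL input (RNA of the homogenate before the pull-down, also from JL). The labels do not say whether each library is a mouse of its own or whether animals were pooled, so a p-value here reflects the spread among libraries, which may be technical. No input from investigator ES was analysed here.

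Collagens are extracellular matrix proteins in which 3 chains wind into a triple helix, in several types with partner chains from different genes. Type IV collagen forms the sheet-like network of the basement membrane that endothelial cells and pericytes share around every brain capillary, with types XV and XVIII linked to its edge. Fibrillar types I, III and V build the fibres of vessel walls and meninges, type VI makes beaded filaments next to the basement membrane, the FACIT group decorates fibril surfaces, and a transmembrane group stays anchored in the plasma membrane, also in neurons. Before secretion the chains are hydroxylated, folded with the chaperone Serpinh1 and cross-linked outside the cell by lysyl oxidases.

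Gene starts are shown for partner chains of type IV collagen, because their genes face each other, and for a pair of transmembrane chains called in opposite directions. The genes of partner chains of type IV collagen lie head to head on opposite strands. Col4a1 (chromosome 8, 11198423 to 11312826, minus strand) and Col4a2 (chromosome 8, 11312805 to 11449287, plus strand) overlap by 22 annotated bases at their starts, shown in capitals and taken from the plus strand of GRCm38.p6 (the assembly of mm10), chr8:11312801-11312830. Col4a4 and Col4a3 on chromosome 1 are parted by 71 bases, shown whole from the minus strand, chr1:82586850-82586920, while the gap between Col4a6 and Col4a5 on chromosome X is 1308 bases. The transmembrane chains Col23a1 (higher in the JL pull-down) and Col25a1 (lower) are shown with the 250 bases before their RefSeq starts, both from the plus strand, chr11:51289670-51289919 and chr3:130180595-130180844. In these windows the capitals mark matches to the GC box core GGGCGG, the CCAAT box CCAAT or the TATA box core TATAAA on either strand. The Col23a1 window ends next to the GENCODE M21 start of the gene (51289920). That of Col25a1 lies inside the GENCODE gene, which starts at 130131501.
Col4a1 and Col4a2: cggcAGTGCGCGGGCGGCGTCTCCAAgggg
Col4a4 and Col4a3: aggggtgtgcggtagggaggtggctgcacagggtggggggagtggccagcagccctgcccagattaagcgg
Col23a1: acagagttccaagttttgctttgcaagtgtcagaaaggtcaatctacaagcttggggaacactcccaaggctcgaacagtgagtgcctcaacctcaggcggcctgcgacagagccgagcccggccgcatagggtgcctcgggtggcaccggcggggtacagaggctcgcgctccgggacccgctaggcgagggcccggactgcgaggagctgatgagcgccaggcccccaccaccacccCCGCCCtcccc
Col25a1: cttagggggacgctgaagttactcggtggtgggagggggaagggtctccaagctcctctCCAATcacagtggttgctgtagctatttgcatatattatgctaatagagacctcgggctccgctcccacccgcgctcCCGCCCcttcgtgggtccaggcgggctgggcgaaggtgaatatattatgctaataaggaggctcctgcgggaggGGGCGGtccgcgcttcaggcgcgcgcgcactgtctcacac
The Col23a1 window holds 1 match to GGGCGG, the Col25a1 window 2 to GGGCGG and 1 to CCAAT, and the 71-base gap holds none of the 3 motifs. RefSeq start regions were found for 35 of the 44 members. In the 250 bases upstream, GGGCGG was present on either strand in 21 of these 35 (60%), against 32.7% of all 32851 start regions, CCAAT in 13 (37.1%, against 33.8%) and TATAAA in 5 (14.3%, against 12.4%). The units differ: a member counted when any of its start regions matched, while the background counts each start region singly. Col9a1, Col6a2 and Col18a1 had more than 1 start region, which raises their chance of a match. A match describes the letters and is no evidence of a bound factor.

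The libraries held 31987470 to 46598478 gene counts, in which a count of 3 corresponded to between 0.0577 and 0.101 CPM (counts scaled for library size, corrected here with TMM factors over all 9 libraries). The gene that drives the tag, Abcb1a, ranged from 1.81 to 2.66 CPM in JL input, 445 to 482 in JL IP and 39.6 to 56.0 in ES IP. Rpl10a, whose endogenous and tagged RNA these counts cannot tell apart, ranged over 7.17 to 7.83, 9.14 to 10.7 and 2.96 to 7.17 CPM in the same order. Endothelial markers (14 genes) had a summed level of 31.7 to 43.8 CPM in JL input, 7326 to 7843 in JL IP and 825 to 1300 in ES IP. Neuron markers (10 genes) had a summed level of 14671 to 15402, 1865 to 2399 and 15272 to 16329 CPM, with the ranges of ES IP and input overlapping. The ribosomal RNA precursor Rn45s took 4.83 to 5.29% of gene counts in JL input, 15.7 to 17.9% in JL IP and 6.04 to 12% in ES IP. By their file names, each JL IP shared a lane number with the input of the same replicate number, and the 3 ES IPs shared a lane number of their own, so investigator, lane and any difference in the tissue cannot be told apart between ES and JL.

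The summed collagen level and the part of it held by basement membrane chains were largest in the JL pull-down. The 44 members summed to 108.5 ± 1.11 CPM in the inputs, 289 ± 45.2 CPM in the JL IPs and 105 ± 4.74 CPM in the ES IPs (mean ± SD, n = 3). Col4a1 and Col4a2 together made up 8.73 to 9.64% of that sum in JL input, 36.6 to 46.7% in JL IP and 14.0 to 16.5% in ES IP. Counts were found for 43 to 44 members in each input, 37 to 40 in each JL IP and 42 to 44 in each ES IP.

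Levels of different genes were set side by side per kilobase of annotated exon. On that scale the highest collagen level in the inputs was Col25a1, a transmembrane chain found in neurons, at 2.62 ± 0.0753 CPM per kilobase, ahead of the FACIT chain Col19a1 at 1.62 ± 0.106. In the JL IPs the order was Col4a2 (9.66 ± 0.908), Col4a1 (6.78 ± 0.907), Col23a1 (5.04 ± 2.16) and Col6a2 (3.09 ± 1.16 CPM per kilobase). The ranges of Col4a2 and Col4a1 over the libraries did not overlap, while those of Col4a1 and Col23a1 did, as did those of Col23a1 and Col6a2, although Col23a1 was above Col6a2 within each JL IP. In the ES IPs 5 members lay close together: Col9a2 (1.49 ± 0.629), Col4a2 (1.48 ± 0.195), Col19a1 (1.36 ± 0.232), Col25a1 (1.33 ± 0.323) and Col23a1 (1.32 ± 0.0993 CPM per kilobase), whose ranges overlapped. These orders depend on the length used. Per kilobase of coding sequence the JL IP order was Col23a1 (18.1 ± 7.76), Col4a2 (12.5 ± 1.17), Col4a1 (10.1 ± 1.35) and Col6a2 (8.29 ± 3.12). The 5 chains of the ES IPs were then spread out, from Col25a1 (8.65 ± 2.09) and Col23a1 (4.74 ± 0.357) to Col19a1 (2.75 ± 0.469), Col9a2 (2.23 ± 0.943) and Col4a2 (1.92 ± 0.252), and in the inputs Col25a1 stayed first at 17.0 ± 0.488.

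**Figure D1:**
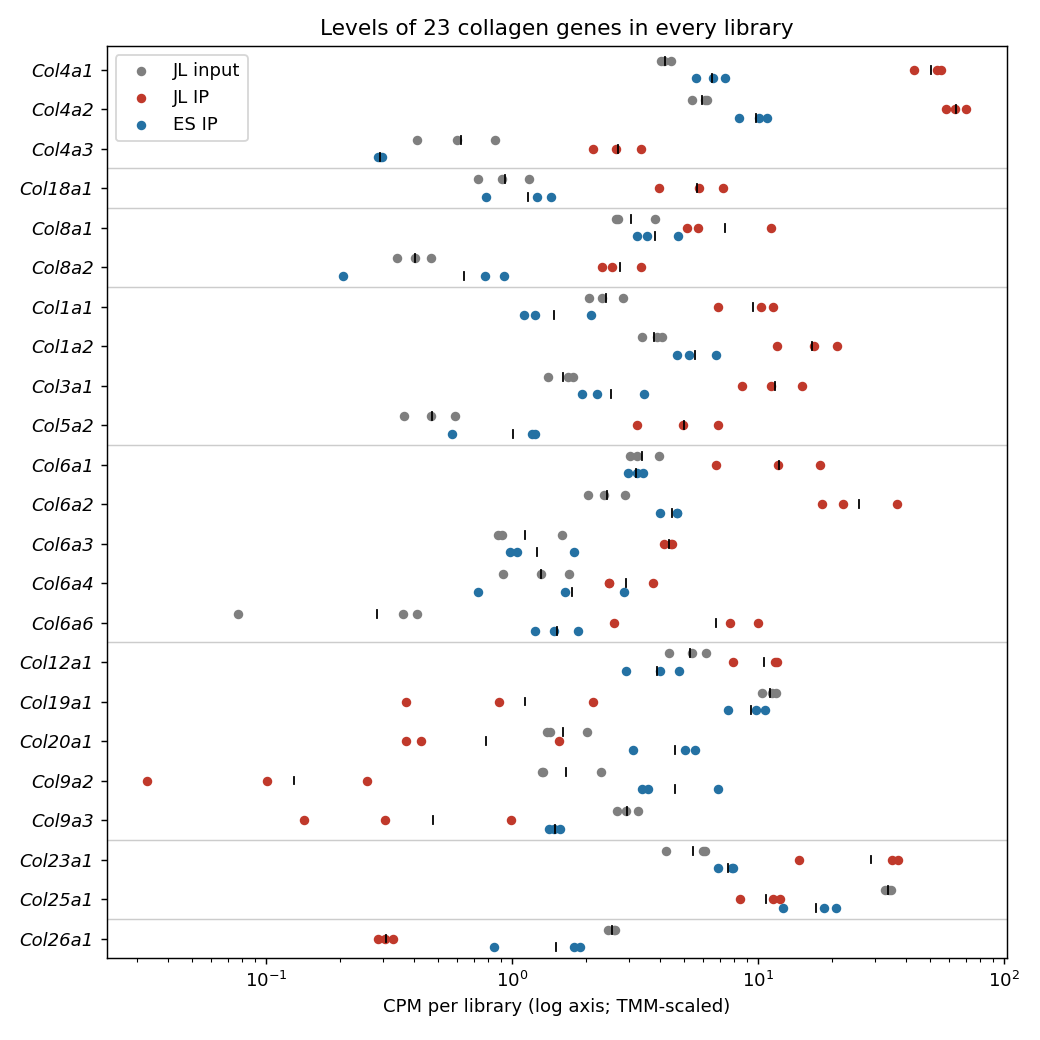
Level of each of the 23 collagen genes with a group mean of at least 2 CPM, 1 point per library, on a log axis in CPM; black ticks are group means and grey lines part the classes. The 3 JL IPs lie to the right of the 3 inputs for the type IV, type VI and fibrillar genes drawn, and to the left for Col19a1, Col9a2, Col9a3, Col25a1 and Col26a1.

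Summed over classes, type IV chains made up 12.5 ± 0.399% of the collagen level per kilobase in the inputs, 43.7 ± 6.45% in the JL IPs and 17.3 ± 1.69% in the ES IPs. The 9 FACIT chains held 29.7 ± 1.98%, 4.27 ± 0.846% and 33.2 ± 1.32%, and the 4 transmembrane chains 27.3 ± 0.977%, 14.8 ± 3.99% and 18.8 ± 2.77%. Type VI chains held 10.4 ± 1.08%, 18.5 ± 2.29% and 12.2 ± 1.13%. The fibrillar share lay between 8.92 and 13.5% in all 9 libraries, and its ranges in the 3 groups overlap. With coding length in place of exon length the type IV share came to 5.93%, 29.9% and 9.89%, and the transmembrane share to 52.1%, 28.6% and 38.5%, so the order of the groups held for both classes while the sizes did not. The fibrillar share with coding length was 7.69 ± 0.50% in the inputs, 13.0 ± 0.783% in the JL IPs and 9.40 ± 1.43% in the ES IPs, so the closeness of its groups holds for exon length only.

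**Figure D2:**
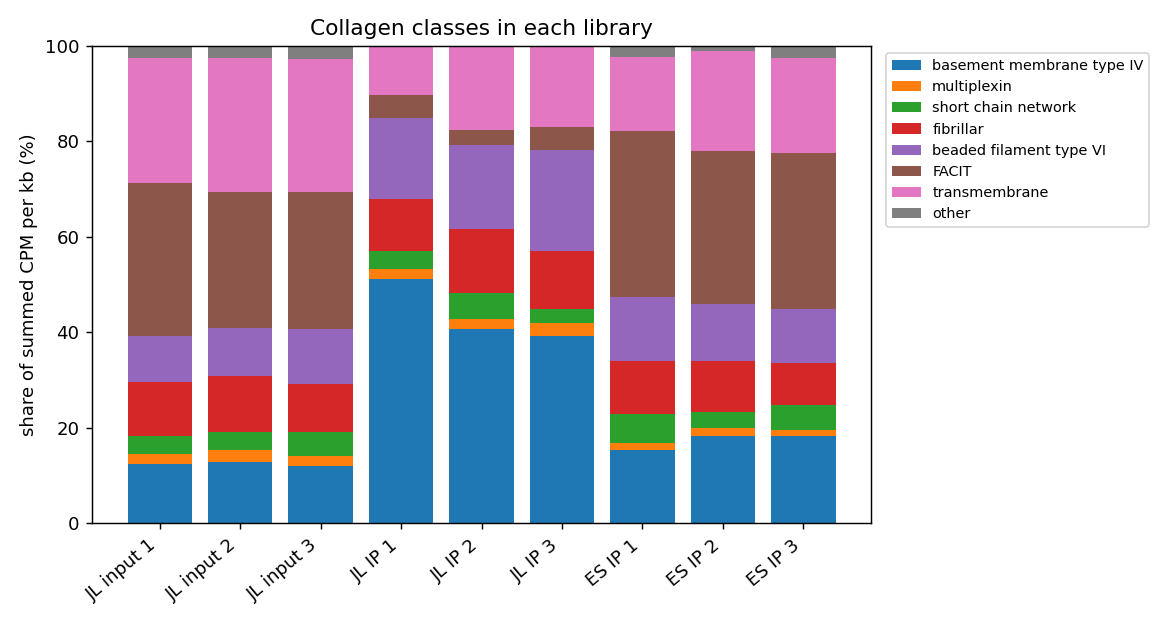
Share of each collagen class in the summed level of all 44 members, in percent of CPM per kilobase of exon, 1 stacked bar per library. The type IV block (bottom) takes 39.4 to 51.1% in the JL IPs, against 12.1 to 12.9% in the inputs, and the FACIT block is narrow in the JL IPs, at 3.29 to 4.83%.

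The comparison of JL IP with JL input asks which collagen RNAs were enriched on tagged ribosomes. Of the 36 members tested with edgeR's quasi-likelihood test, 18 were higher and 8 lower in the JL IPs at an adjusted p under 0.05 (Benjamini-Hochberg over 17357 genes). That is 72.2% called, where the share over all genes tested was 74.1%, so the number called was near the background. Higher calls came to 50% of the tested members (36.7% of all genes) and lower calls to 22.2% (37.4%). The median over members was 0.58 on the log2 scale, and that over all genes tested -0.09. Groups did not overlap for 29 of the 36, against a background of 80.8%. The calls held under every setting in which the gene was tested for 16 of the 18 higher and 7 of the 8 lower members. All 26 called members had the same sign in each of the 3 pairs of JL IP and input with the same lane number. Since the groups of these members did not overlap, that outcome was fixed in advance and adds no support. The median turned on few libraries: without JL IP replicate 3 it was -0.020, and lower calls numbered 13. In bulk RNA, fewer cells of a type and less RNA per cell cannot be told apart.

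**Figure D3:**
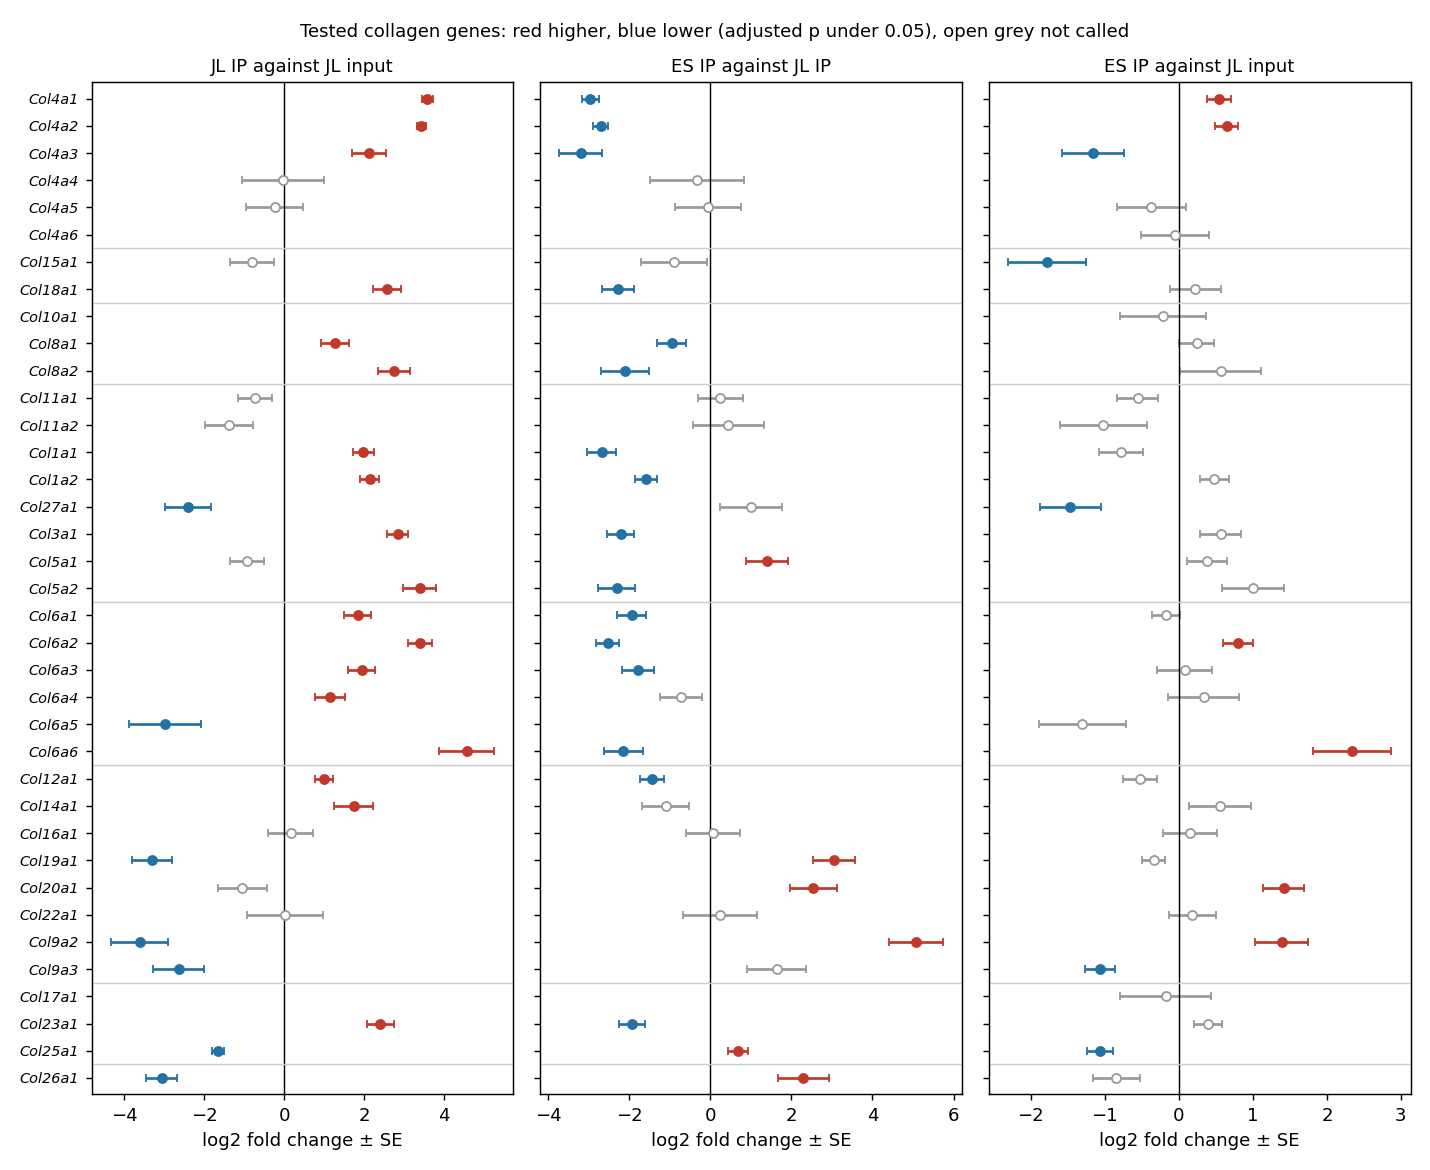
Log2 fold change with its standard error for the tested collagen genes in the 3 comparisons, red where called higher, blue where called lower and open grey where not called, with an axis range of its own in each panel. Col9a1, Col24a1 and Col28a1 are left out because a group held 3 counts or fewer. The 6 tested type VI chains are all called against input in the left panel, 5 higher and 1 lower, where 74.1% of all genes tested were called.

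Among type IV chains, 3 of the 5 tested were called, all higher in JL IP (60%, against 36.7% of all genes tested). Col4a1, the α1 chain of the ubiquitous basement membrane trimer, stood at 4.15, 4.43 and 4.04 CPM in the inputs, 53.2, 43.0 and 55.7 in the JL IPs and 5.62, 7.36 and 6.56 in the ES IPs. Every JL IP was far above every other library, and the ES IPs lay just above the inputs. JL IP exceeded input 12-fold (log2 fold change 3.58, SE 0.14, adjusted p = 6.31e-08). Its partner Col4a2, the α2 chain, gave 6.23, 6.09 and 5.40 CPM in the inputs, 58.3, 70.2 and 63.3 in the JL IPs and 8.41, 10.1 and 10.9 in the ES IPs. The order of the groups was that of Col4a1, with no overlap, and JL IP exceeded input 10.8-fold (log2 3.43, SE 0.12, adjusted p = 3.28e-08).

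Col4a3, which joins Col4a4 and Col4a5 in the trimer known from kidney filters, was a low-level gene at 0.596, 0.411 and 0.851 CPM in the inputs, 2.13, 3.33 and 2.64 in the JL IPs and 0.292, 0.297 and 0.286 in the ES IPs. All JL IPs were above all inputs, by 4.34-fold (log2 2.12, SE 0.43, adjusted p = 0.00201). Its trimer partners did not pass: Col4a4 averaged 0.286 ± 0.18 CPM in input and 0.281 ± 0.27 in JL IP (adjusted p = 0.986), and Col4a5 0.572 ± 0.17 and 0.491 ± 0.40 CPM (adjusted p = 0.775). Thus the 71-base gap between Col4a4 and Col4a3 lay between a gene that was called and 1 that was not. Whether the changes of these genes differed was not tested. Col4a4 had only 42 counts over the inputs and 27 over the JL IPs, and its SE was wide (log2 -0.02, SE 1.02). Exons of C430014B12Rik on the other strand cover 5.65% of the Col4a3 exons, and since no strand setting is given their reads cannot be told apart there. Col4a6 had no count in any JL IP and was not tested; the inputs, at 0.192 to 0.313 CPM, were at least 2.59-fold higher, taking 3 counts per library as the floor.

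Multiplexins are basement membrane chains with long sugar side chains. Col18a1, the source of the fragment endostatin, stood at 0.731, 1.17 and 0.914 CPM in the inputs, 3.96, 5.79 and 7.23 in the JL IPs and 1.26, 1.44 and 0.788 in the ES IPs. The JL IPs stood apart from the other 6 libraries, which overlapped, and exceeded input 5.99-fold (log2 2.58, SE 0.35, adjusted p = 0.000163). Col15a1, the other multiplexin, did not pass (log2 -0.81, SE 0.55, adjusted p = 0.212).

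Short-chain network collagens line vessels and Descemet's membrane of the eye. Col8a1 stood at 2.65, 2.70 and 3.81 CPM in the inputs, 5.17, 11.3 and 5.71 in the JL IPs and 4.72, 3.22 and 3.53 in the ES IPs. JL IP replicate 2 was the highest library, the JL IPs lay above all inputs, and the fold was 2.41 (log2 1.27, SE 0.34, adjusted p = 0.00906). Its partner Col8a2 stood at 0.404, 0.470 and 0.340 CPM in the inputs, 2.33, 3.36 and 2.54 in the JL IPs and 0.778, 0.206 and 0.931 in the ES IPs. The JL IPs again stood alone, 6.73-fold above input (log2 2.75, SE 0.40, adjusted p = 0.000282). Col10a1, a cartilage chain, was too low to test here.

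Fibrillar chains split: 4 of 9 tested were higher, 1 was lower and 4 did not pass. That is 44.4% higher and 11.1% lower, against 36.7% and 37.4% of all genes tested. Col1a1, the α1 chain of type I collagen, stood at 2.83, 2.33 and 2.06 CPM in the inputs, 6.86, 11.5 and 10.3 in the JL IPs and 1.24, 2.10 and 1.12 in the ES IPs. The JL IPs were the highest libraries and the ES IPs mostly the lowest, and JL IP exceeded input 3.95-fold (log2 1.98, SE 0.26, adjusted p = 0.000145). Col1a2, the α2 chain of the same trimer, gave 3.37, 3.88 and 4.06 CPM in the inputs, 12, 16.9 and 21.0 in the JL IPs and 6.76, 4.68 and 5.23 in the ES IPs, a 4.40-fold excess of JL IP over input without overlap (log2 2.14, SE 0.23, adjusted p = 3.65e-05).

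Col3a1, the type III chain of distensible vessel walls, stood at 1.77, 1.68 and 1.40 CPM in the inputs, 8.62, 15.1 and 11.3 in the JL IPs and 3.45, 2.22 and 1.93 in the ES IPs. JL IP exceeded input 7.19-fold (log2 2.85, SE 0.26, adjusted p = 1.44e-05), and no library of the pair of groups overlapped. Col5a2, a type V chain that sits inside type I fibrils, stood at 0.365, 0.587 and 0.468 CPM in the inputs, 3.21, 6.87 and 4.95 in the JL IPs and 1.24, 1.21 and 0.573 in the ES IPs, with JL IP 10.5-fold above input (log2 3.39, SE 0.41, adjusted p = 7.87e-05). Its partner Col5a1 did not follow: it stood at 1.46, 1.49 and 1.30 CPM in the inputs and 0.710, 0.627 and 0.891 in the JL IPs (log2 -0.93, SE 0.42, adjusted p = 0.0735). The fitted differences of these type V chains thus had opposite signs, and that of Col5a1 passed under 6 of the alternatives, among them DESeq2 (adjusted p = 0.0327) and without JL IP replicate 3 (0.0324). Col27a1, a fibrillar chain of cartilage, was lower in the JL IPs, with means of 0.310 ± 0.19 against 1.64 ± 0.44 CPM (log2 -2.40, SE 0.58, adjusted p = 0.00502; log2 -3.00 without JL IP replicate 3). Col11a1, Col11a2 and Col24a1 did not pass, at log2 -0.72, -1.38 and -1.63. Without JL IP replicate 3 the last 2 passed (adjusted p = 0.0178 and 0.00506), and that library held every Col24a1 count of the JL IPs. Col11a2 also passed under upper quartile scaling (0.0356) and library size alone (0.0370), and Col24a1 with limma-voom (0.0320).

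Type VI chains were called in all 6 tested cases, 5 higher and 1 lower (83.3% and 16.7%, against 36.7% and 37.4% of all genes tested). Col6a1, the α1 chain, stood at 3.02, 3.21 and 3.96 CPM in the inputs, 6.73, 12.1 and 17.9 in the JL IPs and 3.40, 3.22 and 2.96 in the ES IPs. The JL IPs varied among themselves but stayed above the other 6 libraries, 3.59-fold over input (log2 1.84, SE 0.34, adjusted p = 0.00113). Col6a2, the α2 chain of the same trimer, gave 2.04, 2.88 and 2.36 CPM in the inputs, 18.3, 22.2 and 36.6 in the JL IPs and 4.69, 4.68 and 4.01 in the ES IPs. The 3 groups did not overlap, and JL IP exceeded input 10.6-fold (log2 3.40, SE 0.29, adjusted p = 8.13e-06). Col6a3, the long α3 chain, stood at 1.60, 0.881 and 0.914 CPM in the inputs, 4.46, 4.45 and 4.16 in the JL IPs and 1.05, 1.78 and 0.979 in the ES IPs, with JL IP 3.83-fold over input (log2 1.94, SE 0.34, adjusted p = 0.000843).

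The other type VI chains, which can take the place of the α3 chain, went both ways. Col6a6 had the largest fitted fold of the called members without a group at 0: it stood at 0.0769, 0.411 and 0.361 CPM in the inputs, 7.71, 9.98 and 2.61 in the JL IPs and 1.24, 1.48 and 1.86 in the ES IPs. The groups did not overlap, JL IP replicate 3 was the lowest of its group, and the fold over input was 23.7 (log2 4.57, SE 0.69, adjusted p = 0.000327). By lane-matched pair its log2 difference ran from 2.69 to 5.93. Col6a4 stood at 1.31, 0.920 and 1.70 CPM in the inputs, 3.75, 2.48 and 2.48 in the JL IPs and 2.87, 0.731 and 1.65 in the ES IPs. Its log2 difference between JL IP and input was 1.14 (SE 0.38, adjusted p = 0.0232), a call lost with a replicate block (adjusted p = 0.0504), with all 9 libraries in 1 fit (0.0512), by library size alone (0.0584) and by upper quartile scaling (0.0602). It was also lost without input replicate 1 (0.0776) or 2 (0.0996). Col6a5 was lower, at 0.298 to 0.404 CPM in the inputs and 0 to 0.101 in the JL IPs (log2 -2.96, SE 0.90, adjusted p = 0.0156; log2 -4.29 without JL IP replicate 1). That call was lost with a replicate block (adjusted p = 0.0579) and without input replicate 1 (0.0618) or 2 (0.0573). The JL IPs held only 3, 1 and 0 Col6a5 counts.

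FACIT chains were the class in which lower calls outnumbered higher ones, 4 against 2 of 9 tested. Lower calls came to 44.4%, near the 37.4% of all genes tested, and higher calls to 22.2% (36.7% of all genes). Col12a1, a long chain on type I fibrils, stood at 4.35, 5.40 and 6.12 CPM in the inputs, 7.95, 12 and 11.8 in the JL IPs and 3.99, 4.77 and 2.91 in the ES IPs, a 1.99-fold excess of JL IP over input (log2 1.0, SE 0.23, adjusted p = 0.00381). Col14a1, a related fibril-associated chain, was also higher, with means of 1.85 ± 0.73 against 0.549 ± 0.11 CPM (log2 1.74, SE 0.49, adjusted p = 0.0109; 0.0534 without input replicate 3). Both thus stood on the side of the fibrillar chains of types I and III.

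Col19a1, which cortical interneurons make, stood at 11.8, 10.4 and 11.4 CPM in the inputs, 0.372, 0.884 and 2.15 in the JL IPs and 7.58, 9.87 and 10.7 in the ES IPs. The JL IPs lay far below the other 6 libraries, 9.89-fold under input (log2 -3.31, SE 0.50, adjusted p = 0.000329), and without JL IP replicate 3, the highest of its group, the log2 value was -4.12. Type IX chains, known from cartilage, were lower too. Col9a2 stood at 2.31, 1.33 and 1.34 CPM in the inputs, 0.101, 0.257 and 0.0330 in the JL IPs and 6.86, 3.59 and 3.39 in the ES IPs. Its JL IP values rest on only 3, 9 and 1 counts, so the size of its fold is uncertain. Here the ES IPs were the highest group and the JL IPs the lowest, without overlap, and JL IP lay 12.2-fold under input (log2 -3.61, SE 0.72, adjusted p = 0.00175; -4.57 without JL IP replicate 2). Col9a3 stood at 2.90, 3.25 and 2.68 CPM in the inputs, 0.304, 0.143 and 0.990 in the JL IPs and 1.48, 1.42 and 1.58 in the ES IPs.

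The Col9a3 groups did not overlap either, and JL IP lay 6.18-fold under input (log2 -2.63, SE 0.63, adjusted p = 0.00508; -3.73 without JL IP replicate 3). Exons of Tcfl5 on the other strand cover 6.07% of the Col9a3 exons, so their reads cannot be told apart there. Col9a1, the other type IX chain, had no count in any JL IP and 0.319 to 0.646 CPM in the inputs, and was called lower (adjusted p = 0.0015), by at least 5.26-fold against a floor of 3 counts per library. With Col9a1 set at that bound the members' median stayed at 0.58. Col20a1 stood at 2.02, 1.39 and 1.42 CPM in the inputs, 0.372, 0.428 and 1.55 in the JL IPs and 3.11, 5.07 and 5.56 in the ES IPs. JL IP replicate 3 fell among the inputs, and the difference of -1.05 (SE 0.61) did not pass (adjusted p = 0.153), although it did without that library (log2 -2.0, adjusted p = 0.00359) and with limma-voom (0.0417). Col16a1 did not pass (adjusted p = 0.799). Col22a1 rested on a single library: it stood at 1.02, 0.940 and 1.17 CPM in the inputs and 2.67, 0.0855 and 0.462 in the JL IPs (adjusted p = 0.979), and without JL IP replicate 1 it was lower (log2 -1.94, adjusted p = 0.0360).

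The transmembrane class held a call in each direction. Col23a1, a transmembrane chain that can be shed from the cell surface, stood at 4.21, 6.07 and 6.0 CPM in the inputs, 14.6, 35.1 and 37.0 in the JL IPs and 6.90, 7.88 and 7.90 in the ES IPs. JL IP replicate 1 was well under the other two of its group but above all inputs, and the fold over input was 5.32 (log2 2.41, SE 0.34, adjusted p = 0.000232). Col25a1, the collagen whose shed part is found in amyloid plaques, stood at 34.7, 34.2 and 32.9 CPM in the inputs, 8.49, 11.5 and 12.3 in the JL IPs and 12.6, 20.7 and 18.5 in the ES IPs. The 3 groups kept apart, with the inputs highest and closest together, and JL IP lay 3.16-fold under input (log2 -1.66, SE 0.15, adjusted p = 1.28e-05). Col13a1 and Col17a1, the other members of the class, were too low to test. Outside the classes, Col26a1 stood at 2.60, 2.45 and 2.64 CPM in the inputs, 0.304, 0.285 and 0.330 in the JL IPs and 1.90, 0.845 and 1.79 in the ES IPs. It was 8.31-fold lower in JL IP than in input (log2 -3.06, SE 0.39, adjusted p = 0.000118), with no overlap.

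Markers of the other cells that make collagen moved as follows beside these results. Of all genes tested, 36.7% were higher and 37.4% lower in the JL IPs. The shares higher and lower were 10% and 70% for pericyte, 33.3% and 55.6% for fibroblast and 37.5% and 25% for smooth muscle markers. Of 10 pericyte markers 1 was higher in the JL IPs (Anpep) and 7 were lower, with sums of 40.2 to 45.5 CPM for JL input, 26.5 to 54.3 for JL IP and 27.7 to 32.7 for ES IP. Without Anpep the pericyte sums were 37.9 to 43.3, 8.42 to 14.8 and 20.7 to 27.4 CPM. Of 9 tested fibroblast markers 3 were higher (Dcn, log2 1.28, Ogn, 2.41, and Pi16, 2.99) and 5 lower, Dpt was at 0 in every JL IP, and the sums were 184 to 200, 104 to 142 and 55.6 to 69.5 CPM. Most of the input sum was Igf2, a growth factor gene (123.4 to 133.4 CPM), and without it the sums were 60.2 to 67.1, 67.2 to 109 and 40.4 to 48.4 CPM, which turns the order of input and JL IP. Of 8 smooth muscle markers 3 were higher and 2 lower, with sums of 22.5 to 25.1, 142 to 187 and 35.6 to 47.1 CPM, and Smtn led the higher ones at log2 5.84; without it the sums were 20.8 to 22.6, 29.9 to 65.8 and 17.4 to 28.4 CPM. The part of these cells in the collagen differences was not tested. On the log2 scale the 14 endothelial markers had a median difference of 7.80, above that of each collagen gene.

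The comparison of ES IP with JL IP sets the same fraction from both investigators side by side. Of 34 members tested, 7 were higher and 16 lower in the ES IPs, 67.6% called against a background of 57.9%. By direction this was 20.6% higher (29.7% of all 16212 genes) and 47.1% lower (28.2%), and the members' median was -0.92 against 0.03 for all genes. Groups did not overlap for 24 of the 34, against a background of 65.8%. It shares the JL IPs with the comparison above, so genes high there tend to be low here, and the signs of the one are no check on the other. Of the calls, 4 of 7 higher and 15 of 16 lower held under every setting in which the gene was tested.

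The chains lower in ES IP belonged mostly to the basement membrane, type VI and fibrillar classes. They included 3 of 5 tested type IV chains (60%), 4 of 5 type VI chains (80%), 4 of 8 fibrillar chains (50%), both short-chain network members tested (100%) and 1 of 2 multiplexins (50%). Of all genes tested 28.2% were lower, and of the 8 tested FACIT chains 1 was (12.5%). With so few genes in a class these shares are coarse. Col4a1 was 7.77-fold lower in ES IP than in JL IP (log2 -2.96, SE 0.21, adjusted p = 1.19e-06), Col4a2 6.50-fold (log2 -2.70, SE 0.19, adjusted p = 1.24e-06) and Col4a3 9.17-fold (log2 -3.20, SE 0.52, adjusted p = 0.000336). The libraries given above show the same separation: no ES IP reached a JL IP for any of these genes. Col1a1 (log2 -2.68), Col6a2 (-2.53), Col5a2 (-2.31), Col18a1 (-2.28), Col3a1 (-2.20), Col6a6 (-2.14), Col8a2 (-2.10), Col6a1 and Col23a1 (both -1.94), Col6a3 (-1.78), Col1a2 (-1.58) and Col12a1 (-1.44) were lower as well. Col8a1 was lower by 0.95 on the log2 scale (adjusted p = 0.0412), a call lost without JL IP replicate 2 (adjusted p = 0.228) and under 4 other settings.

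Higher in ES IP were Col9a2 (33.7-fold, log2 5.07, SE 0.66, adjusted p = 6.34e-05), Col19a1 (8.24-fold, log2 3.04, SE 0.52, adjusted p = 0.000441), Col20a1 (log2 2.54), Col26a1 (log2 2.29), Col5a1 (log2 1.39, adjusted p = 0.0379, over 0.05 under 6 settings, up to 0.192 without ES IP replicate 2) and Col25a1 (log2 0.68, adjusted p = 0.0363). Without JL IP replicate 3 the log2 value of Col19a1 was 3.87 and that of Col20a1 3.51, and without JL IP replicate 2 that of Col9a2 was 6.04. The Col9a2 fold rests on 3, 9 and 1 counts in the JL IPs, so its size is uncertain. Col28a1, a chain of peripheral nerve, was also called (adjusted p = 0.00622). It had 2 counts over the 3 JL IPs and 54 over the 3 ES IPs, a 20.2-fold ratio after scaling with a 95% counting interval of 5.33 to 171. The call for Col25a1 was lost without ES IP replicate 2 (adjusted p = 0.146) or replicate 3 (0.0973) and without JL IP replicate 1 (0.117) or replicate 2 (0.0654), and that for Col26a1 without ES IP replicate 3 (0.0503). Without ES IP replicate 3 only 3 members were called higher. Col9a3 (log2 1.64) did not pass in the main fit. It did with DESeq2 (adjusted p = 0.0438), with limma-voom (0.0211), with all 9 libraries in 1 fit (0.0281) and without JL IP replicate 3 (0.00828). Neuron markers moved with this group: all 10 were higher in ES IP (median log2 2.61), and all 14 endothelial markers were lower (median log2 -3.02). Of 8 astrocyte markers 6 were higher and 0 lower, and of 8 oligodendrocyte markers 7 and 1. Of 5 tested choroid plexus and ependyma markers 2 were higher and 2 lower, against 29.7% and 28.2% of all genes tested. Ttr, on that list, ranged over 606 to 702 CPM in JL input, 38.1 to 53.6 in JL IP and 0.668 to 1.53 in ES IP. The part of these cells in the collagen differences was not tested.

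ES IP was also set against JL input, a comparison across both fraction and investigator that shares libraries with each of the other two. Collagens differed least often here: of 39 members tested, 7 were higher and 6 lower, 33.3% called against a background of 52.2%. Higher calls came to 17.9% (26.9% of all 17477 genes) and lower calls to 15.4% (25.3%), the median was 0.08 against 0.00, and groups did not overlap for 19 of the 39 (background 64.6%). Of the calls, 4 of 7 higher and 2 of 6 lower held under every such setting. The sign of that median changed under scaling by upper quartile (-0.072) or library size alone (-0.039). All 14 endothelial markers were higher in ES IP than in input (median log2 4.54), and all 7 choroid plexus and ependyma markers were lower (median log2 -2.22).

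Of the 5 type IV chains tested, 2 were higher in ES IP and 1 was lower (40% and 20%, against 26.9% and 25.3% of all genes tested). That is 60% called, near the background of 52.2%. Higher were Col4a2 by 1.57-fold (log2 0.65, SE 0.15, adjusted p = 0.00821) and Col4a1 by 1.46-fold (log2 0.54, SE 0.16, adjusted p = 0.0220). The Col4a1 call was lost under upper quartile scaling (adjusted p = 0.0754), under library size alone (0.0537), without ES IP replicate 2 (0.0561) and without any of the 3 inputs (0.0626 to 0.0908). Col6a6 (log2 2.34, SE 0.53, adjusted p = 0.00645) and Col6a2 (log2 0.80, SE 0.20, adjusted p = 0.0106) were higher too, the latter not without input replicate 1 (adjusted p = 0.0553). The remaining higher members were Col20a1 (log2 1.42, adjusted p = 0.00315), Col9a2 (log2 1.39, adjusted p = 0.0114) and Col28a1 (log2 1.81, adjusted p = 0.0200), none of which was higher in JL IP than in input. Lower were Col25a1 (2.09-fold, log2 -1.06, adjusted p = 0.00151), Col9a3 (log2 -1.06, adjusted p = 0.00300, but 0.113 with all 9 libraries in 1 fit), Col27a1 (log2 -1.47, adjusted p = 0.0174), Col15a1 (log2 -1.78, adjusted p = 0.0209, -2.62 without ES IP replicate 3), Col4a3 (log2 -1.16, adjusted p = 0.0473) and Col24a1. Col24a1 had 3 counts over the ES IPs and 77 over the inputs, a 21.7-fold ratio after scaling (95% counting interval 7.15 to 107), with 2 of the 3 counts in ES IP replicate 3 and 46 of the 77 in input replicate 2. The Col4a3 call was lost under 11 of the settings tried, among them each replicate left out. Those of Col15a1 (adjusted p up to 0.0717), Col27a1 (up to 0.0755) and Col28a1 (up to 0.0923) were lost without some of the libraries too. Col1a1 (log2 -0.78, adjusted p = 0.0543) and Col1a2 (log2 0.48, adjusted p = 0.0726) did not pass. Col1a1 passed under 5 settings, among them DESeq2 (adjusted p = 0.0436) and without ES IP replicate 2 (0.0145), and Col1a2 without ES IP replicate 2 (0.0476). Col26a1 (log2 -0.84) did not pass in the main fit. It did under several settings, among them DESeq2 (adjusted p = 0.0350), limma-voom (0.0326) and without ES IP replicate 1 (0.0138). Col2a1, Col5a3, Col7a1 and Col13a1 were tested in none of the comparisons, with 61, 45, 44 and 61 counts over all 9 libraries.

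Partner chains of a trimer were compared as a ratio of levels per kilobase within each library, which does not depend on the scaling. Col4a1 to Col4a2 came to 0.591, 0.644 and 0.663 in the inputs, 0.811, 0.542 and 0.781 in the JL IPs and 0.592, 0.643 and 0.532 in the ES IPs. The groups overlapped, while the level in the JL IPs was more than 10-fold higher than in the inputs (exact two-sided permutation p = 0.5 for the ratio). With so few libraries that test cannot show that the ratio was kept. Col6a1 to Col6a2 came to 2.82, 2.12 and 3.19 in the inputs, 0.699, 1.03 and 0.928 in the JL IPs and 1.38, 1.31 and 1.40 in the ES IPs. No library of a group overlapped with another group, and the mean log2 difference between JL IP and input was -1.61. Col1a1 to Col1a2 came to 1.59, 1.14 and 0.962 in the inputs, 1.08, 1.29 and 0.927 in the JL IPs and 0.347, 0.850 and 0.406 in the ES IPs, where the ES IPs were lowest. With 3 libraries against 3 the exact permutation test cannot go below p = 0.1, which the 5 comparisons without overlap reached, and adjusted over the 9 tests it was 0.18. Coding length gave other ratios (1.44, 0.471 and 0.723 for the group means of Col6a1 to Col6a2) but multiplies all libraries by the same factor, so the order is unaffected.

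**Figure D4:**
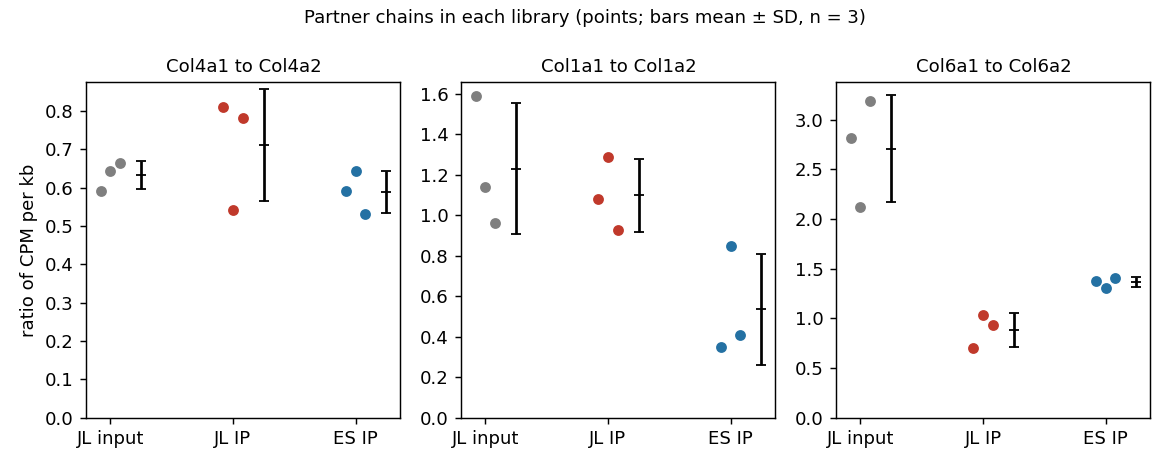
Ratio of the level per kilobase of partner chains in each library (points), with the mean and SD of each group of 3 beside them. The ratio of Col6a1 to Col6a2 averages 2.71 in the inputs, 0.887 in the JL IPs and 1.36 in the ES IPs without overlap, while that of Col4a1 to Col4a2 overlaps in all groups.

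The genes that make, bind and break down collagen gave a mixed picture against input. Of 34 genes of synthesis, folding, processing and cross-linking, 31 were tested in the JL comparison, 17 were higher and 9 lower (median log2 0.65). That is 54.8% higher and 29% lower, where all genes tested gave 36.7 and 37.4%. Lox, a lysyl oxidase that starts cross-linking, was at 16.9 ± 3.0 CPM in JL IP and 0.386 ± 0.11 in input (43.3-fold, log2 5.44, SE 0.28, adjusted p = 3.22e-07). Serpinh1, the chaperone of the collagen triple helix, was at 42.6 ± 7.1 and 1.26 ± 0.32 CPM (33.6-fold, log2 5.07, SE 0.22, adjusted p = 1.22e-07). Sparc, a collagen-binding matrix protein and the highest of the list, was at 2109 ± 158 CPM in JL IP, 109 ± 7.97 in input and 253 ± 39.4 in ES IP (log2 4.27, adjusted p = 3.41e-09 for JL IP against input). Lower were Adamts3, a protease that trims procollagen ends (log2 -2.11, adjusted p = 3.6e-05), and Loxl3, a lysyl oxidase relative (log2 -2.83, adjusted p = 0.0283; -4.81 without JL IP replicate 1 and -2.23 without JL IP replicate 2). The Loxl3 call was lost without JL IP replicate 3 (adjusted p = 0.0534) and without each input (0.0575 to 0.0997).

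Of 11 collagen receptors 10 were tested, 6 of them higher and 2 lower (median log2 2.30), 80% called against the background of 74.1%. Itga1, the α1 integrin subunit that binds collagen, was at 66.9 ± 8.8 CPM in JL IP and 1.81 ± 0.48 in input (36.6-fold, log2 5.19, adjusted p = 6.45e-08). Itgb1, its β1 partner and the highest receptor gene, was at 179 ± 14.3 and 28.7 ± 1.65 CPM (log2 2.64, adjusted p = 2.66e-08). Mrc2, an endocytic collagen receptor, was higher by 3.6, while Ddr1, a collagen-activated kinase, was lower by 1.13 (adjusted p = 0.0139, but 0.0516 without JL IP replicate 2) and Lair1, an inhibitory receptor of immune cells, lower by 3.15 on the log2 scale (-3.91 without JL IP replicate 3). Of 6 degradation genes 4 were tested: Mmp14, a membrane-bound collagenase, was higher (log2 1.35, adjusted p = 0.002) and Mmp9, a gelatinase, lower (log2 -3.56, adjusted p = 0.00403). That is 50% called, below the background of 74.1%. In ES IP against JL IP, 1 synthesis gene was higher and 18 were lower of 31, 61.3% called against a background of 57.9%, and against input 7 were higher and 12 lower, again 61.3% called (background 52.2%). For the receptors these counts were 1 and 5 of 9 (66.7% called), then 4 and 1 of 9 (55.6%), and for degradation 1 and 1 of 4 (50%), then 0 and 1 of 4 (25%).

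**Figure D5:**
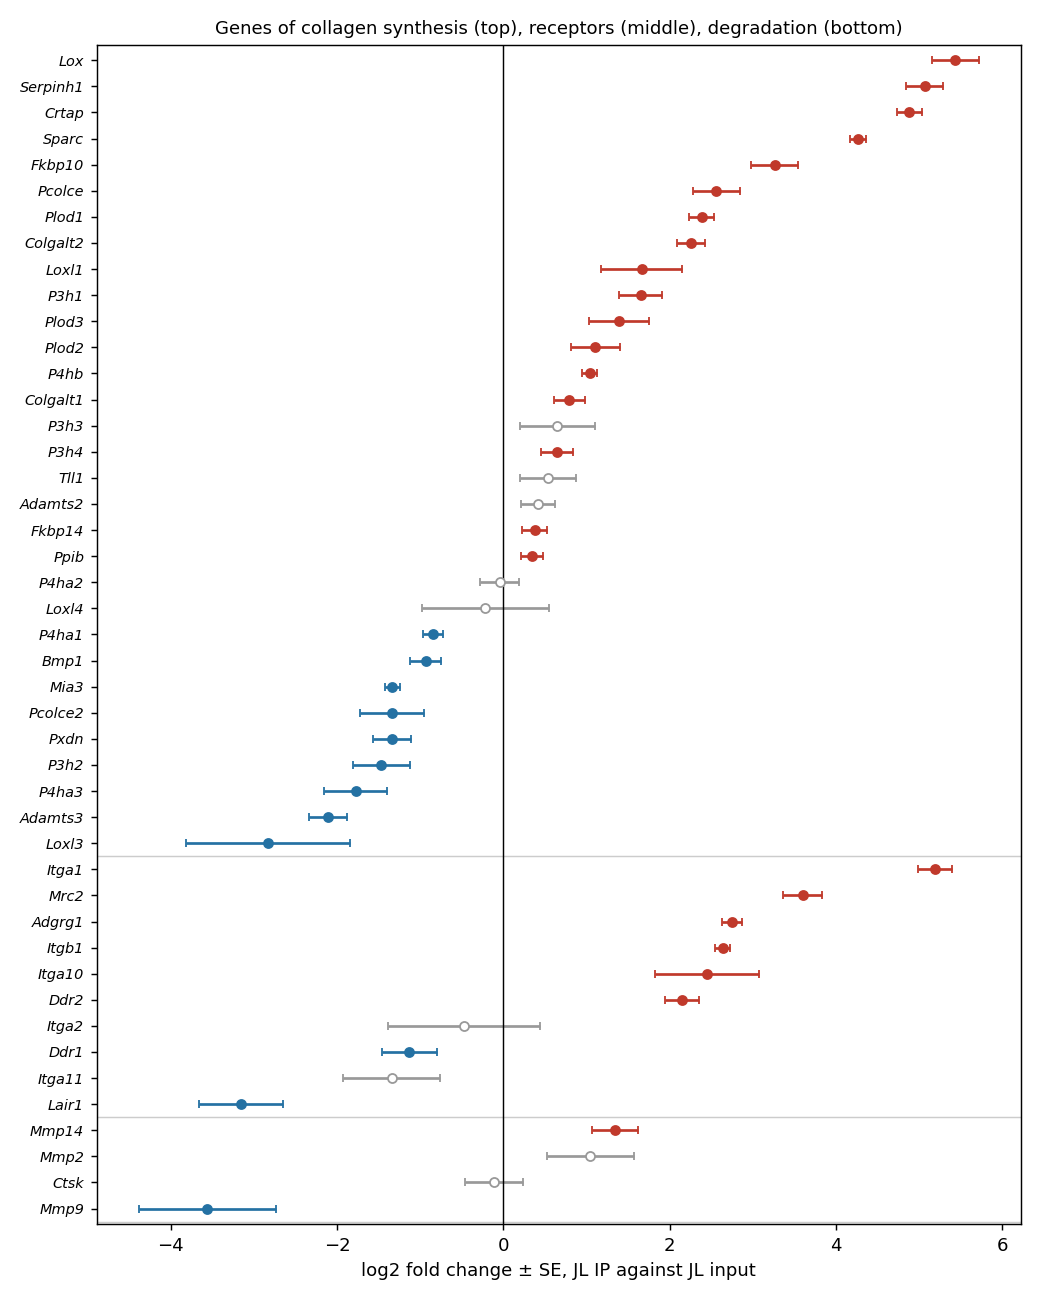
Log2 fold change with its standard error, JL IP against JL input, of the tested genes of collagen synthesis (top), receptors (middle) and degradation (bottom), red where called higher, blue where called lower and open grey where not called. Lox (5.44), Serpinh1 (5.07) and Itga1 (5.19) lie far to the right, and Mmp9 (-3.56), Lair1 (-3.15) and Loxl3 (-2.83) to the left.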

How the data were processed

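Ribosome-bound RNA (6 libraries) and input RNA (3) were sequenced. The authors' tools were STAR 2.0.0e for alignment to mm10 and HTSeq for counting, per the submitters' processing notes; the sources used here give neither the annotation nor the strand setting. Each deposited file holds the unnormalized counts of 1 library by gene. Reads that HTSeq gave to no feature (17.3 to 24.4% of reads in genes, in no feature or ambiguous) or to several (10.3 to 11.3% in the inputs, 2.04 to 2.54% in the IPs) were left out. So were alignments that were not unique. Per gene count these numbered 0.610 to 0.635 in the inputs, 0.953 to 1.43 in the ES IPs and 1.80 to 2.05 in the JL IPs. Each comparison used edgeR 4.0.16 (R 4.3.3) on its own 6 libraries: filterByExpr, TMM, glmQLFit and glmQLFTest, Benjamini-Hochberg adjustment over all tested genes, threshold 0.05. The SE was taken as the absolute log2 fold change over the square root of F. CPM levels use TMM factors over all 9 libraries, and per-kilobase levels the GENCODE M21 exon union. A gene is called where adjusted p is under 0.05; members with a group mean of at least 2 CPM are given in every library, and of each other list the 2 highest, the 2 lowest called genes and the most abundant. Intervals cover counting error only. The test was checked on simulated data. Alternatives were other scalings, filters, tools (DESeq2 1.42.0, limma 3.58.1), a replicate block and each replicate left out. Members and gene lists were chosen with earlier results of these data known.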

Additional observations from a re-analysis of the deposited data

How the results depend on the processing

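Low levels limit these results: many members stand near 1 CPM, where few counts carry the value, and groups of 3 give no exact p under 0.1. The coding length planned from RefSeq proteins was not run; the longest GENCODE coding sequence was used instead, a choice made after seeing the data, as was leaving out the most abundant gene of a marker list. Upper quartile scaling and library size alone moved the median log2 fold change of all genes by over 0.1, from -0.09 to -0.34 and -0.35 for JL IP against input and from 0.00 to -0.15 and -0.11 for ES IP against input. The split of higher to lower calls over all genes moved with them from 6372 and 6487 to 5425 and 7555 (upper quartile) and 5392 and 7566 (library size), and from 4704 and 4422 to 3705 and 5395 and to 3923 and 5156; the collagen split moved from 18 and 8 to 17 and 10 under either, and from 7 and 6 to 6 and 10 under either.

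The median over tested collagen genes was 0.58 for JL IP against input. It was 0.33 under upper quartile scaling and under library size alone, 0.072 without a low count filter, 0.035 with DESeq2 and 0.022 with all 9 libraries in 1 fit, the last 3 testing more low genes. With a replicate left out it ran from -0.020 (without JL IP replicate 3) to 0.94, lower calls from 7 to 13 and higher calls from 17 to 18. For ES IP against JL IP the median of -0.92 was -0.56 without the filter, -0.58 with DESeq2 and -0.80 in the fit of all 9, and ran from -1.0 to -0.66 with a replicate left out, with 3 to 9 higher and 15 to 16 lower calls. For ES IP against input the median of 0.08 changed sign under upper quartile scaling (-0.072), library size alone (-0.039), DESeq2 (-0.0040) and without ES IP replicate 3 (-0.050), and ran from -0.050 to 0.10 with a replicate left out. Its 6 lower calls became 10 under both scalings and 3 in the fit of all 9; with a replicate left out there were 3 to 7 lower calls (3 without input replicate 2 or 3) and 4 to 8 higher (4 without input replicate 1). The cause was not tested where none is given.

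Of named genes that were not called, the ES IP against input value of Col6a3 (0.080) was -0.072 with upper quartile scaling and -0.039 with library size alone, and ran from -0.23 to 0.40 with a replicate left out. Those of Col6a4, Mmp14 and Mmp9 changed sign as a replicate was left out, over -0.23 to 0.73, -0.32 to 0.0067 and -0.29 to 0.091. Col22a1 in JL IP against input (0.030) was -0.22 with upper quartile scaling, -0.25 with library size alone, -0.019 with RLE size factors, -0.014 with DESeq2, -1.15 with limma-voom and -0.99 with the replicate block, and ran from -1.94 to 0.58 with a replicate left out; in ES IP against JL IP it ran from -0.31 to 2.20.

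The replicate numbers were not treated as pairing the libraries, because not every correlation of same-numbered deviations was over 0.1. These correlations were 0.153, 0.0713 and 0.101 for JL IP and input, where each library correlated best with its own number and shared its lane number, 0.0899, -0.0399 and 0.0405 for ES and JL IP, and 0.0411, 0.0218 and 0.0344 for ES IP and input. With the replicate block, collagen calls were 17 higher and 7 lower, 6 and 15, and 7 and 6 in the 3 comparisons, and calls over all genes 6124 and 6307, 4771 and 4532, and 4439 and 4212.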
